A study of Mus musculus with 22 samples.

Results

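Cpa3, Mcpt8, Prss34, Fcer1a, Ms4a2, Fcer1g and Hdc are 7 genes that mark basophils and mast cells, taken by symbol from the 24982 genes counted in every library. They were followed through the maturation of eosinophils, in which all of them except Prss34 and Mcpt8 were detected at every stage in every library. The 22 RNA-seq libraries come from eosinophils of maturation stages I to IV, with I the earliest, sorted from the bone marrow of wild type C57BL/6 mice. Every mouse had received 400 ng of recombinant IL-33, a cytokine that drives eosinophilia, into the peritoneum on each of 7 days, and there were no mice without IL-33. With the last IL-33 dose began 3 daily injections of 400 µg of either an antibody that neutralizes IL-5, the main growth factor of eosinophils, or a control isotype. Each of the 8 combinations of stage and treatment has 3 libraries, except stage II with 2 in each treatment. The age and sex of the mice are not given, nor is whether a library is 1 mouse or a pool, so p-values measure the spread between these samples, which may be technical.

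Cells carrying Ly6G, CD90.2, NK1.1 or CD45R were depleted before the sort. The gates were set on CD117, CD200R3 and PIR-A/B, and on Siglec-F, F4/80, CD29 and CD55. CD117 is the product of Kit, a receptor that mast cells also carry, and CD200R3 is also a basophil marker, so levels of Kit and Cd200r3 between stages describe the gates. Libraries held 7161264 to 14781250 gene counts and 12359 to 13829 genes with at least 1 count. Levels are CPM, gene counts scaled to a common library size, with TMM-adjusted library sizes, folds are log2 with their standard error, and a gene was called changed at a Benjamini-Hochberg adjusted p under 0.05 in edgeR's quasi-likelihood test over 12387 genes. All 7 genes passed the filter on low counts. All 10 eosinophil marker genes, among them Epx, Prg2 and Siglecf, were detected in every group, with a summed level of 9164 to 68167 CPM per library. In these bulk samples, fewer cells of a type and less RNA per cell cannot be told apart.

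The high-affinity IgE receptor of basophils and mast cells joins an IgE-binding alpha chain (Fcer1a), a signal-amplifying beta chain (Ms4a2) and a gamma chain pair (Fcer1g). The gamma chain carries the signal and also serves other Fc and activating receptors in most myeloid cells. When antigen cross-links bound IgE, the cells release granules that hold histamine, made from histidine by the decarboxylase Hdc, and proteases. Cpa3 is the carboxypeptidase of mast cell granules, also made by basophils and their progenitors. Mcpt8 and Prss34 are serine proteases of mouse basophil granules. Both are used to tell mouse basophils from mast cells.

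The genes lie on 6 chromosomes of build mm10 in the GENCODE annotation. Cpa3 lies at chr3:20215620-20242181 on the minus strand and contains the microRNA gene Mir7007. Ms4a2 lies at chr19:11615523-11623719, minus strand, beside other Ms4a genes. Fcer1a lies at chr1:173221284-173227214 and Fcer1g at chr1:171229572-171234365, both on the minus strand. Mcpt8 lies at chr14:56082166-56085273, minus strand, in the chymase locus next to Ctsg and the mast cell chymases, and contains Mir6949. Prss34 lies at chr17:25298394-25300165, plus strand, and Hdc at chr2:126593667-126619299, minus strand. None of them overlaps another gene of the annotation except for both microRNAs, which share their host's strand.

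The promoters of Cpa3, Ms4a2, Fcer1a and Prss34, each 250 bases before to 50 after the RefSeq start in build GRCm38.p6, are printed 5′ to 3′ on the gene's strand because they share the word AGATAA. It is a form of the motif bound by GATA factors, the transcription factor family of eosinophils, basophils and mast cells. Capitals mark AGATAA or its complement TTATCT.
Cpa3: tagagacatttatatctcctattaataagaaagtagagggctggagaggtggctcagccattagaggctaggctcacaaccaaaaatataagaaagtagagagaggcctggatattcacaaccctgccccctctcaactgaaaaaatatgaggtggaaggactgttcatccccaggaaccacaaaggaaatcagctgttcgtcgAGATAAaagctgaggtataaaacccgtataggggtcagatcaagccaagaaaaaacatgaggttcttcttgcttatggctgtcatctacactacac
Ms4a2: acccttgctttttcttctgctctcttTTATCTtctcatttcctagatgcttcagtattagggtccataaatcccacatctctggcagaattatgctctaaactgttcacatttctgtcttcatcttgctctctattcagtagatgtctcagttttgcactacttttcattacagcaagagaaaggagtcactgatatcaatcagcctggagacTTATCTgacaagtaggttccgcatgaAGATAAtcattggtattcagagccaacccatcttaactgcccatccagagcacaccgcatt
Fcer1a: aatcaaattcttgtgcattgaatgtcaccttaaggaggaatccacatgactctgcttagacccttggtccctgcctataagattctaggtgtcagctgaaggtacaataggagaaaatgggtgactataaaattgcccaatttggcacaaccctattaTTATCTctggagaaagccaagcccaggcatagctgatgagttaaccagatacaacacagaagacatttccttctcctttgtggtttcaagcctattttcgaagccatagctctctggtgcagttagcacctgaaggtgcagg
Prss34: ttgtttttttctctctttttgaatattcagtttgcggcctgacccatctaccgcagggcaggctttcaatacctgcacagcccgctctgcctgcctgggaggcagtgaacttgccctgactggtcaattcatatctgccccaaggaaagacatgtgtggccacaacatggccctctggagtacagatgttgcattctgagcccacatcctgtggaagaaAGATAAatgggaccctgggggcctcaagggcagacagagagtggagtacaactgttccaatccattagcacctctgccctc
Cpa3 covers chr3:20242132-20242431, Ms4a2 chr19:11623670-11623969 and Fcer1a chr1:173227180-173227479, each on the minus strand, and Prss34 covers chr17:25298144-25298443 on the plus strand. On either strand AGATAA stood in 4 of the 7 promoters, against 11.2% of 32851 RefSeq mouse promoters of the same length. It begins 46 bases before the start in Cpa3, 92 before in Fcer1a and 31 before in Prss34, and Ms4a2 holds it 3 times, 224, 37 and 11 bases before. With the other GATA words AGATAG, then TGATAA, then also TGATAG counted beside AGATAA on either strand, Hdc joins them and 5 of 7 hold a match, against 29.8% of all promoters. TTCNNNGAA, the word bound by STAT factors such as the STAT5 proteins that act below the IL-5 receptor, stood in 0 of 7, against 8.3%. TATAAA stood in 2 of 7, Cpa3 and Fcer1a, against 13.6%. CACGTG or CATGTG, words bound by Mitf and related factors, also stood in 2 of 7, Fcer1a and Prss34, against 20.4%. These matches describe letters in short windows and were searched after the sequences had been seen.

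Across maturation 6 of the 7 genes fell and the gamma chain did not. From stage I to stage IV, 6 of 7 were called lower and Fcer1g higher in isotype libraries, where 33.9% of all tested genes were called lower and 32.3% higher. Under anti-IL5 the calls were the same, with 32.8% of all genes called lower and 30.7% higher. Shares this high make a call by itself unremarkable here, and the size of the falls carries the description. Without TMM scaling the median of all genes shifts to -0.462 (log2) in isotype and -0.475 under anti-IL5 libraries, from -0.045 and -0.058, and 35.2% and 33.0% of calls are higher in place of 48.8% and 48.3%. The summed level of the 5 genes other than Fcer1g and Hdc went from 952 to 1491 CPM at stage I in isotype libraries to 23.5 to 32.0 CPM at stage IV. The 10 eosinophil markers also fell in sum there, from 43632 to 50760 CPM at stage I to 10735 to 12115 at stage IV. Of these markers 6 were called lower and 4 higher, with a median of -2.67 (log2), beside -4.08 for the 7 genes. A fall particular to the 7 genes was not tested.

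**Figure D1:**
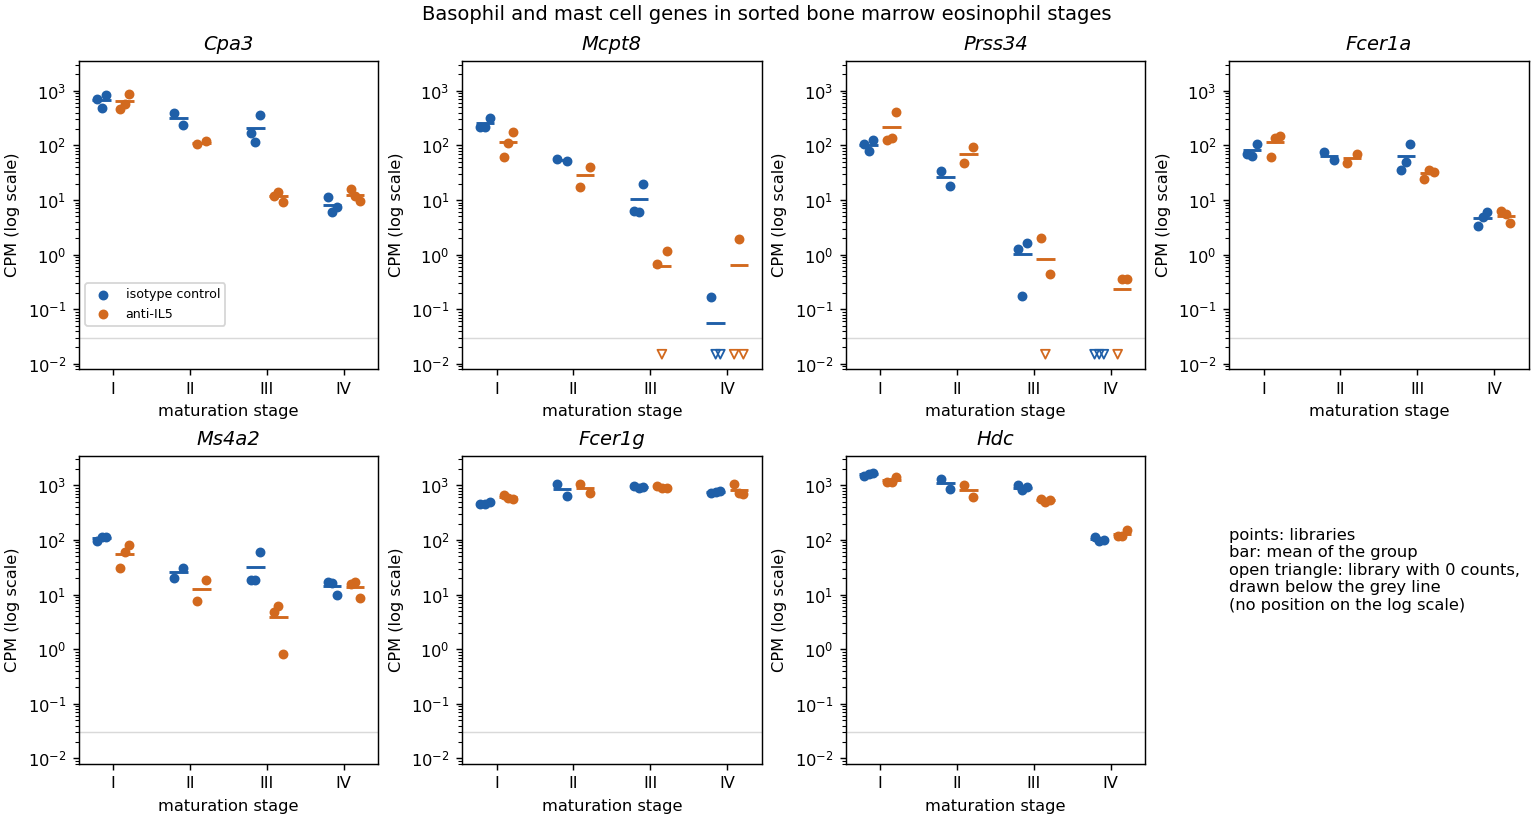
Levels of the 7 genes in all 22 libraries, in CPM on a log scale, by maturation stage, with isotype control libraries in blue and anti-IL5 libraries in orange. Bars are group means and open triangles are libraries with 0 counts. At stage III the 3 anti-IL5 libraries lie below all isotype libraries for Cpa3, Ms4a2, Mcpt8, Fcer1a and Hdc.

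The granule proteases fell furthest. Cpa3 in isotype libraries stood at 708, 477 and 823 CPM at stage I, at 399 and 235 at stage II, at 168, 114 and 354 at stage III and at 11.2, 5.98 and 7.58 at stage IV. Stages I to III held Cpa3 at over 100 CPM in each isotype library, and each stage IV library was far below. The fall from stage I to IV was -6.34 ± 0.43 (log2, edgeR adjusted p = 8.28e-11), and most of it came between stages III and IV, at -4.68 ± 0.40 (edgeR adjusted p = 1.86e-08).

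Under anti-IL5 the same gene was down to its stage IV range by stage III. Cpa3 stood at 473, 583 and 871 CPM at stage I, at 105 and 119 at stage II, at 11.7, 14.0 and 9.35 at stage III and at 15.6, 12.01 and 9.61 at stage IV. The stage III libraries overlapped those of stage IV. Cpa3 fell from stage I to II by -2.52 ± 0.41 (log2, edgeR adjusted p = 0.000556) and from stage II to III by -3.26 ± 0.40 (edgeR adjusted p = 2.57e-06), while stage IV against III gave 0.08 ± 0.38 (edgeR adjusted p = 0.915). In isotype libraries the steps from I to II, -1.08 ± 0.38, and from II to III, -0.58 ± 0.37, were not called (edgeR adjusted p = 0.0814 and 0.232).

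The basophil protease Mcpt8 was present at stages I and II and nearly gone at stage IV. In isotype libraries it stood at 221, 218 and 321 CPM at stage I, at 56.8 and 52.4 at stage II and at 6.36, 6.12 and 19.4 at stage III. At stage IV only 2 counts were left in 3 isotype libraries, both in replicate 1, against 8487 counts at stage I, a level lower by 4483-fold (95% counting interval 1241 to 37025). No stage overlapped the next. Intervals and floors here cover counting error alone, since PCR copies were counted without molecular identifiers. The step from stage II to III was -2.36 ± 0.65 (log2, edgeR adjusted p = 0.00809), and the step from I to II, -2.21 ± 0.67 (edgeR adjusted p = 0.0429), lost its call without any 1 of its 5 libraries, with an adjusted p of up to 0.219.

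Under anti-IL5, Mcpt8 stood at 61.1, 112 and 174 CPM at stage I, at 17.2 and 39.8 at stage II and at 0.686, 0 and 1.16 at stage III. At stage IV, replicate 2 held 1.96 CPM and the other libraries 0. All 22 counts of that group lie in replicate 2, which also has the highest stage IV levels of the neutrophil granule genes Mpo, at 240.4 CPM against 16.6 to 69.3 in the other stage IV libraries, Elane, at 81.4 CPM, and Ctsg, at 12.6 CPM. The part of such cells in the Mcpt8 value was not tested. From stage II to III the count went from 515 in 2 libraries to 20 in 3, a 47.1-fold lower level per library size (95% counting interval 30.2 to 77.8).

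Prss34, the other basophil protease, also fell through maturation, with higher group means under anti-IL5 than in isotype libraries at stages I and II, differences that were not called. In isotype libraries it stood at 108, 79.2 and 125 CPM at stage I, at 34.6 and 18.0 at stage II and at 1.27, 0.175 and 1.62 at stage III. At stage IV it had 0 counts in all 3 isotype libraries, where 3 counts would be 0.227 to 0.281 CPM. Against 3541 counts at stage I, the level was at least 1247-fold lower with a floor of 3 counts over the group. It fell by 4.74 ± 0.79 from stage II to III (log2, edgeR adjusted p = 0.000215).

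Under anti-IL5, Prss34 stood at 126, 136 and 404 CPM at stage I, at 47.9 and 93.2 at stage II, at 2.06, 0 and 0.445 at stage III and at 0, 0.356 and 0.359 at stage IV. Replicate 3 of stage I stood above both others of its group. From stage I to IV the counts went from 6633 to 8, an 873-fold lower level (95% counting interval 443 to 2022). The step from II to III was -6.40 ± 0.79 (log2, edgeR adjusted p = 8.76e-06).

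The 3 chains of the IgE receptor each took a different course. Ms4a2, the beta chain, was highest at stage I, with 96.3, 114 and 114 CPM in isotype libraries, and stood at 20.1 and 31.2 at stage II, at 18.7, 18.9 and 59.9 at stage III and at 17.3, 16.6 and 9.83 at stage IV. It was lower at stage IV than at stage I by -2.89 ± 0.53 (log2, edgeR adjusted p = 8.37e-05), while the isotype libraries of stages II and III overlapped. Unlike Mcpt8 and Prss34 it was detected in every stage IV library, at an isotype mean of 14.6 ± 4.1 CPM (SD, n = 3).

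Under anti-IL5 the course of Ms4a2 had its lowest point at stage III. The libraries held 30.5, 59.2 and 79.5 CPM at stage I, 7.64 and 18.2 at stage II, 4.80, 6.05 and 0.801 at stage III and 15.4, 17.3 and 8.63 at stage IV. Every stage IV library was above every stage III library. The fall from stage II to III was -1.75 ± 0.62 (log2, edgeR adjusted p = 0.0291) and the rise from III to IV 1.83 ± 0.57 (edgeR adjusted p = 0.0232). Each call was lost without certain libraries, with an adjusted p of up to 0.36 without stage II replicate 2 or stage III replicate 3 for the fall, and of up to 0.0839 without stage III replicate 3 or stage IV replicate 1 or 2 for the rise. With limma-voom neither passed, at an adjusted p of 0.0647 and 0.0525.

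Fcer1a, the chain that binds IgE, was not called at either step up to stage III in isotype libraries. There the ranges were 64.4 to 108 CPM at stage I, 53.5 to 74.9 at stage II, 35.5 to 106 at stage III and 3.32 to 6.09 at stage IV. The first 3 stages overlapped and stage IV lay below them all. The step from III to IV was -3.73 ± 0.40 (log2, edgeR adjusted p = 2.84e-07). Under anti-IL5 the ranges were 61.2 to 149, 48.6 to 70.5, 24.1 to 35.4 and 3.86 to 6.20 CPM, so that stage III lay below every library of stages I and II (step from II to III -0.96 ± 0.39, edgeR adjusted p = 0.0554). The step from III to IV was -2.57 ± 0.40 (edgeR adjusted p = 4.76e-05).

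Fcer1g, the gamma chain, did not fall. Its isotype libraries ran from 455 to 497 CPM at stage I, 634 to 1058 at stage II, 904 to 960 at stage III and 739 to 783 at stage IV. Stage I lay below every other stage. Stage IV was higher than stage I by 0.70 ± 0.18 (log2, edgeR adjusted p = 0.00158) in isotype libraries and by 0.46 ± 0.18 (edgeR adjusted p = 0.0294) under anti-IL5. This rise is relative to the scaling. Without TMM factors it was 0.28 (adjusted p = 0.101) and 0.03 (adjusted p = 0.871), and under anti-IL5 it was not called with RLE factors (adjusted p = 0.0679), with DESeq2 (adjusted p = 0.0604) or without 1 of 3 libraries, replicates 2 and 3 of stage I and replicate 1 of stage IV, at an adjusted p of up to 0.248.

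Hdc, the enzyme that makes histamine, was the most abundant of the 7 by CPM at stage I and lost most of its level at the last step. In isotype libraries it stood at 1483, 1601 and 1720 CPM at stage I, at 1304 and 874 at stage II, at 1009, 814 and 918 at stage III and at 112, 95.7 and 99.9 at stage IV. Stages II and III overlapped. The step from III to IV was -3.16 ± 0.19 (log2, edgeR adjusted p = 7.12e-11). Under anti-IL5 the libraries held 1177, 1131 and 1412 CPM at stage I, 1007 and 625 at stage II, 575, 493 and 531 at stage III and 116, 117 and 153 at stage IV, and the same step was -2.05 ± 0.18 (edgeR adjusted p = 4.22e-08).

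Per kilobase of exon, the order between genes at stage I in isotype libraries was Fcer1g with a mean level of 539 CPM per kilobase, Cpa3 with 441, Mcpt8 with 254, Hdc with 251, Prss34 with 85.2, Fcer1a with 81.0 and Ms4a2 with 38.4. At stage IV it was Fcer1g with 875, Hdc with 16.0, Cpa3 with 5.45, Ms4a2 with 5.18, Fcer1a with 4.78, Mcpt8 with 0.0568 and Prss34 with 0. The alpha and beta chains thus stood at like levels per kilobase at stage IV, whereas at stage I the alpha chain was higher. Exon length here is the union over all annotated transcripts, with 6389 bases for Hdc, 2813 for Ms4a2 and 998 for Fcer1a. The order between genes depends on this choice of length.

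**Figure D2:**
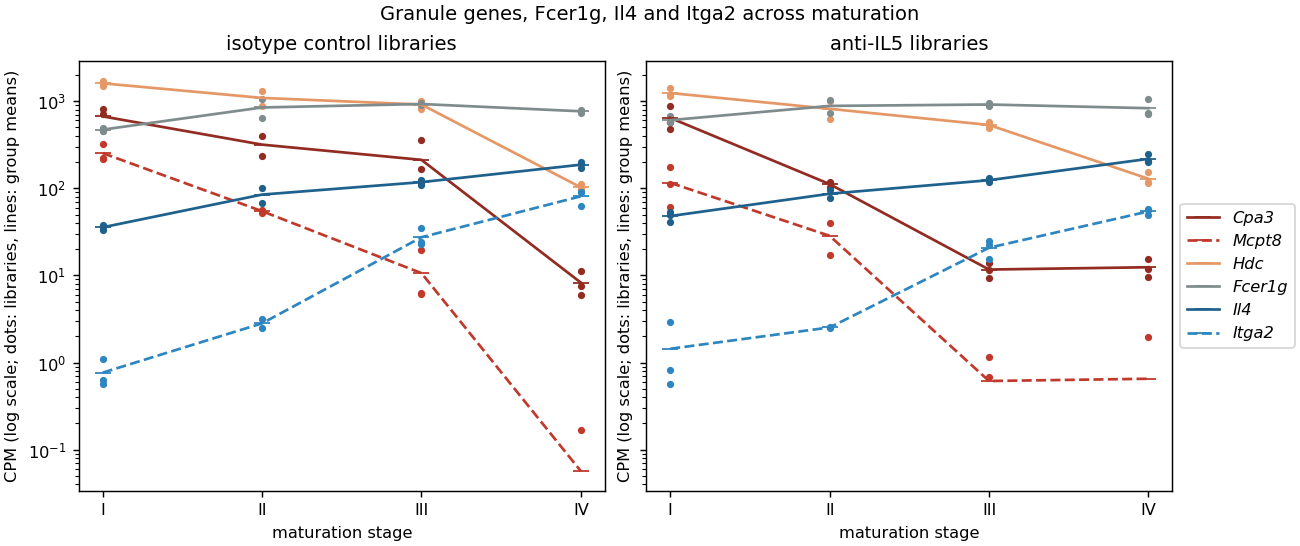
CPM on a log scale by maturation stage in isotype control libraries (left) and anti-IL5 libraries (right), with dots for libraries above 0 counts and lines through group means, for Cpa3, Mcpt8, Hdc, Fcer1g and the genes Il4 and Itga2. Cpa3, Mcpt8 and Hdc end low while Il4 and Itga2 end high, and under anti-IL5 Cpa3 is at its stage IV level by stage III.

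Over single steps the 7 genes gave 14 tests, 1 per gene and treatment. From stage I to II, 3 of 7 were called in isotype libraries (Mcpt8 and Ms4a2 lower, Fcer1g higher), where 10.6% of all genes were called, and 2 of 7 were called lower under anti-IL5 (Cpa3 and Ms4a2), against 5.17% of all genes. The Fcer1g rise, 0.84 ± 0.20 (log2, edgeR adjusted p = 0.00754), was lost without isotype replicate 1 of stage II, at an adjusted p of 0.364. From stage II to III, 2 of 7 were called lower in isotype libraries, against 18.0% of all genes, and 5 of 7 under anti-IL5, against 19.7%. From stage III to IV, 5 of 7 were called lower in isotype libraries, against 18.8% of all genes, and 2 of 7 lower and 1 higher under anti-IL5, against 13.4% and 10.4%. Thus the larger number of calls lay at the last step in isotype libraries and at the step before it under anti-IL5. Whether the count differs between treatments was not tested as such, and the difference of the anti-IL5 effect is tested for single genes.

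Of the 4 stages, stage III was the one at which edgeR called any of these genes for anti-IL5 against isotype. Cpa3, Mcpt8, Ms4a2 and Hdc were called lower, 4 of 7 with 0 higher, against 5.05% of all genes called lower and 1.32% higher. The median of the 7 was -1.04 (log2), beside -0.01 over all 12387 genes. No library of one group overlapped the other for Cpa3, Ms4a2, Mcpt8, Fcer1a and Hdc, 5 of 7, against 26.0% of all genes.

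Cpa3 was lower by -4.18 ± 0.39 (log2, edgeR adjusted p = 3.43e-06), with 9.35 to 14.0 CPM in all 3 anti-IL5 libraries against 114 to 354 in isotype. Mcpt8 was lower by -4.06 ± 0.85 (log2, edgeR adjusted p = 0.00759), from 300 counts in 3 isotype libraries to 20, a 16.7-fold lower level (95% counting interval 10.6 to 27.8). Ms4a2 was lower by -3.07 ± 0.57 (log2, edgeR adjusted p = 0.00307). Hdc was lower by a smaller amount, -0.78 ± 0.18 (log2, edgeR adjusted p = 0.0101).

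The remaining genes were not called. Fcer1a gave -1.04 ± 0.35 (log2, edgeR adjusted p = 0.0808), with 24.1 to 35.4 CPM under anti-IL5 and 35.5 to 106 in isotype. Prss34 gave -0.23 ± 1.02 (edgeR adjusted p = 0.939) at under 3 CPM in all 6 libraries, too few counts to show a difference of moderate size. Fcer1g gave -0.02 ± 0.18 (edgeR adjusted p = 0.98), with 877 to 958 CPM under anti-IL5 against 904 to 960.

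Isotype replicate 3 of stage III was the highest of its group for Cpa3, Ms4a2, Fcer1a, Mcpt8 and Prss34, but not for Hdc or Fcer1g. This library also had the highest stage III levels of Gata2, at 529 CPM, of the steroid enzyme Cyp11a1, at 253 CPM, and of the cytotoxic granule gene Nkg7, at 220.1 CPM. Without it Cpa3 was still lower, at -3.59 ± 0.32 (log2, edgeR adjusted p = 1.80e-06), as were Ms4a2 at -2.28 ± 0.52 (edgeR adjusted p = 0.0206), Mcpt8 at -3.29 ± 0.84 (edgeR adjusted p = 0.0428) and Hdc at -0.77 ± 0.20 (edgeR adjusted p = 0.0373). Fcer1a went to -0.46 ± 0.33 (edgeR adjusted p = 0.516), and it was called without isotype replicate 1. Hdc lost its call without anti-IL5 replicate 2 or 3, at an adjusted p of up to 0.0524.

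**Figure D3:**
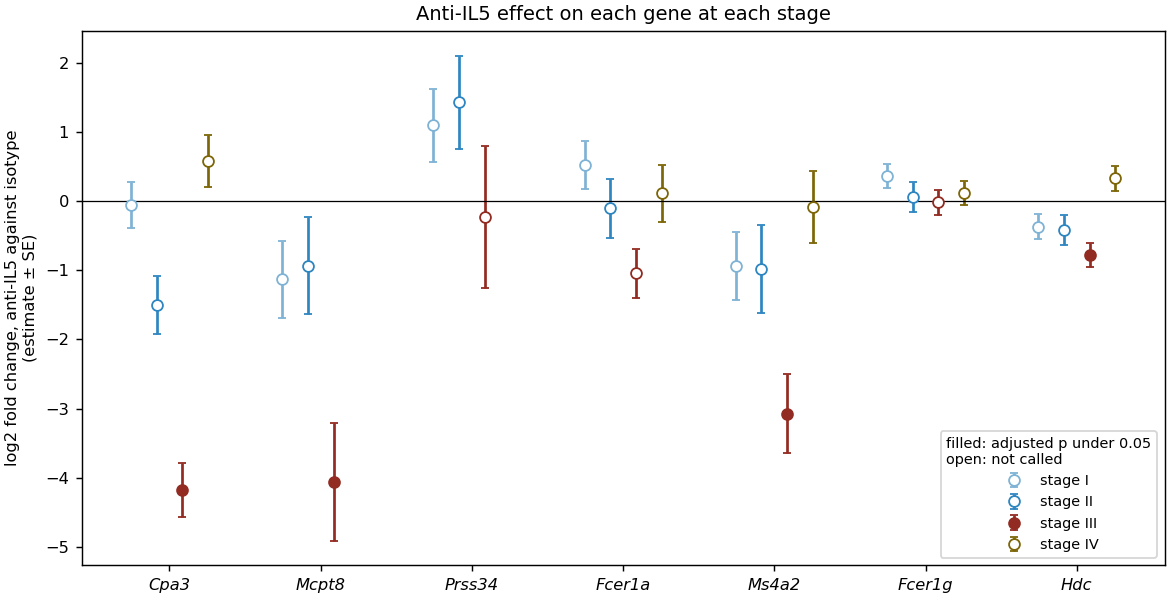
Anti-IL5 against isotype as log2 fold change with its standard error, for each gene at stages I to IV. Filled points have an edgeR adjusted p under 0.05, and all 4 of them are stage III values below 0. Mcpt8 and Prss34 at stage IV are left out because a group had 2 or 0 counts.

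At stage I, edgeR called 0 of 7 (4.42% of all genes), with 1 at an unadjusted p under 0.05, 0 by DESeq2 and 1, Mcpt8, by limma-voom. The differences at stage I ran in both directions, from -1.13 ± 0.56 (log2) for Mcpt8 and -0.94 ± 0.50 for Ms4a2 through -0.06 ± 0.33 for Cpa3 to 1.09 ± 0.53 for Prss34. The stage I libraries did not overlap between treatments for Mcpt8, Ms4a2, Prss34, Fcer1g and Hdc, 5 of 7, against 28.4% of all genes. At stage II, edgeR called 0 of 7 (1.75% of all genes), with 1 at an unadjusted p under 0.05, 1, Cpa3, by DESeq2 and 0 by limma-voom. Cpa3 stood at 105 and 119 CPM under anti-IL5 against 399 and 235, -1.50 ± 0.42 (log2, edgeR adjusted p = 0.0759). At stage IV, edgeR called 0 of 7 (1.05% of all genes), with 0 at an unadjusted p under 0.05 and 0 by DESeq2 or limma-voom. Cpa3 there gave 0.58 ± 0.38 (log2, edgeR adjusted p = 0.736) and Hdc 0.33 ± 0.18 (edgeR adjusted p = 0.631).

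Averaged over the 4 stages, Cpa3 at -1.29 ± 0.19 (log2, edgeR adjusted p = 8.35e-05), Ms4a2 at -1.27 ± 0.28 (edgeR adjusted p = 0.00326) and Hdc at -0.31 ± 0.09 (edgeR adjusted p = 0.0238) were called lower. That is 3 of 7, against 10.3% of all genes. Prss34 gave 1.69 ± 0.79 (log2, edgeR adjusted p = 0.158). DESeq2 called the same 3 genes lower and Prss34 higher, and limma-voom called the same 3 lower. The Hdc call was lost without isotype replicate 1 or anti-IL5 replicate 2 of stage II, at an adjusted p of up to 0.093.

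The difference of the anti-IL5 effect between stages was itself tested. For Cpa3 the effect at stage III minus that at stage I was -4.12 ± 0.50 (log2, edgeR adjusted p = 0.000465), where 0.396% of all genes were called. Minus that at stage IV it was -4.76 ± 0.54 (edgeR adjusted p = 0.000272), where 0.638% were. Over all stages the interaction had an edgeR adjusted p of 0.000449 for Cpa3, with 1.07% of genes called. Hdc differed between stages III and IV by -1.11 ± 0.25 (log2, edgeR adjusted p = 0.0452), a call that 10 of the fits without 1 library lost, at an adjusted p of up to 0.12, as did limma-voom. For Ms4a2 stage III minus stage I gave -2.13 ± 0.74 (edgeR adjusted p = 0.255), for Mcpt8 -2.93 ± 1.04 (edgeR adjusted p = 0.277) and for Fcer1a -1.56 ± 0.49 (edgeR adjusted p = 0.183), so a larger effect at stage III was shown for Cpa3 and not for these.

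The ratio of both basophil proteases is a comparison chosen after the values were seen and given without a test. Mcpt8 counts divided by Prss34 counts were 2.05, 2.75 and 2.57 at stage I and 1.64 and 2.91 at stage II in isotype libraries. Under anti-IL5 they were 0.487, 0.824 and 0.431 at stage I and 0.359 and 0.427 at stage II. Every isotype library had more Mcpt8 than Prss34 counts and every anti-IL5 library of these stages fewer. As both counts come from the same library, the ratio does not depend on the scaling.

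**Figure D4:**
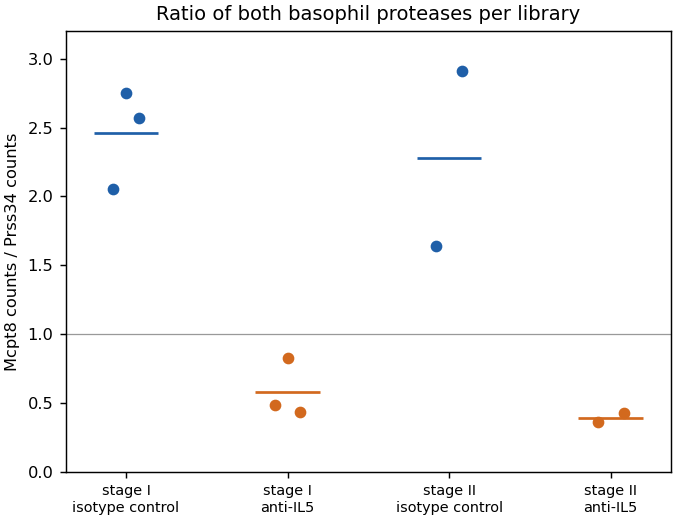
Mcpt8 counts divided by Prss34 counts in each library of stages I and II, with bars for group means and a grey line at 1. Isotype control libraries lie between 1.64 and 2.91 and anti-IL5 libraries between 0.359 and 0.824.

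Of 15 other marker genes of basophils 14 were tested. From stage I to IV in isotype libraries 11 were called higher and 2, Ifitm1 and Cyp11a1, lower, against 32.3% and 33.9% of all genes, with a median of 2.46 (log2). The 11 include Cd200r3, whose protein was used in the gates. The difference between this list and the 7 genes was not tested. The cytokine Il4 had 32.9 to 38.2 CPM at stage I and 172 to 199 at stage IV, and rose by 2.39 ± 0.16 (log2, edgeR adjusted p = 3.01e-11). Itga2, the CD49b integrin chain, had 0.566 to 1.11 CPM and 62.2 to 91.0 CPM, and rose by 6.66 ± 0.42 (edgeR adjusted p = 1.57e-11). Both were chosen after their values were seen. At stage III under anti-IL5 3 of the 14 were called lower and 0 higher, against 5.05% and 1.32% of all genes, namely Gata2, the GATA factor of basophils and mast cells, at -1.53 ± 0.23 (log2, edgeR adjusted p = 0.000329), Ifitm1, an interferon-induced membrane protein, at -2.30 ± 0.50 (edgeR adjusted p = 0.0091), and Cyp11a1, which cuts the cholesterol side chain, at -3.02 ± 0.41 (edgeR adjusted p = 0.000222). The median of the list at stage III was -0.41. At stage I, 2 of 14 were called lower, Ifitm1 and Cyp11a1, against 4.42% of all genes called in either direction. At stage II Cyp11a1 was called lower and Hgf higher (1.75% of all genes), and at stage IV Lilrb4a lower (1.05%). Averaged over stages Gata2, Ifitm1 and Cyp11a1 were again lower, 3 of 14, against 10.3% of all genes. There 2 of 14 were higher, against 8.59%. These were Hgf, hepatocyte growth factor, at 0.57 ± 0.11 (edgeR adjusted p = 0.000772) and Il18rap, an IL-18 receptor chain, at 0.46 ± 0.13 (edgeR adjusted p = 0.018). Ifitm1 lost its stage III call without replicate 3 of either treatment, at an adjusted p of up to 0.0639, and Il18rap its call without anti-IL5 replicate 2 of stage II, at 0.054.

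Connective tissue and mucosal mast cell genes were near absent. Of 18 other mast cell genes, Mcpt1, Mcpt4, Mcpt9, the tryptases Tpsab1, Tpsb2 and Tpsg1, and the receptors Mrgprb1, Mrgprb2 and Mrgprx2 had 0 counts in all 22 libraries. Only 6 of the 18 were tested. At stage III edgeR called 0 of them, with 1 at an unadjusted p under 0.05, 1, Kit, higher by DESeq2 and 0 by limma-voom. Averaged over stages edgeR called 0, with 0 at an unadjusted p under 0.05, 0 by DESeq2 and 1, Rab27b, lower by limma-voom. The tetraspanin Cd63 gave -0.33 ± 0.18 (log2, edgeR adjusted p = 0.279) and Kit 1.32 ± 0.46 (edgeR adjusted p = 0.0935) at stage III. Kit thus had a positive value where Cpa3, Ms4a2 and Mcpt8 fell, with 28.4 to 44.6 CPM under anti-IL5 and 10.7 to 18.9 in isotype libraries.

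In the chymase locus around Mcpt8, 12 of 14 other protease genes were not tested for lack of counts. Ctsg, cathepsin G of neutrophil and monocyte granules, had 202 to 346 CPM at stage I in isotype libraries and 0.562 to 2.27 at stage IV, a fall of -7.62 ± 0.90 (log2, edgeR adjusted p = 1.05e-06). For anti-IL5 edgeR called 0 of the 2 tested genes, Ctsg and Gzmb, at stage III and over stages, with 0 at an unadjusted p under 0.05 and 0 by DESeq2 or limma-voom.

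Around histamine, 7 of 8 genes were tested. At stage III only Slc22a3, a transporter that carries histamine across the plasma membrane, was called, lower by -4.15 ± 0.83 (log2, edgeR adjusted p = 0.00493). It stood at 13.2, 8.74 and 30.6 CPM in isotype libraries and at 1.67, 0.0961 and 1.16 under anti-IL5. Averaged over stages it was the only call as well, at -1.72 ± 0.42 (edgeR adjusted p = 0.0066). Of all genes 5.05% were called lower at stage III and 10.3% averaged over stages. The vesicle transporter Slc18a2 gave 0.07 ± 0.29 (log2) and the histamine methyltransferase Hnmt 1.08 ± 0.41 at stage III, and neither was called. Through maturation in isotype libraries 2 of the 7 were called higher, the histamine receptor genes Hrh1 at 1.59 ± 0.65 (log2, edgeR adjusted p = 0.036) and Hrh4 at 1.93 ± 0.55 (edgeR adjusted p = 0.00416), and 4 lower, Hrh2, Slc22a3, Hnmt and Slc18a2, against 32.3% and 33.9% of all genes. Hnmt fell by 3.96 ± 0.40 (log2, edgeR adjusted p = 1.65e-08) and Slc18a2 by 1.39 ± 0.29 (edgeR adjusted p = 0.000264). These values were chosen after they were seen.

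Most of the signalling genes below the IgE receptor were higher at stage IV than at stage I. Of 22, 18 were called higher and 2, Lat and Vav1, lower in isotype libraries, against 32.3% and 33.9% of all genes, with a median of 1.83 (log2) beside -0.045 over all genes. At the step from stage II to III in isotype libraries, 15 of 22 were already called higher, against 2355 of all 12387 genes. The list median was 1.06 at this step, at which Fcer1a gave -0.02 ± 0.39 (log2, edgeR adjusted p = 0.985). The kinase Syk rose from 79.6 to 125 CPM at stage I to 595 to 677 at stage IV, 2.58 ± 0.22 (log2, edgeR adjusted p = 1.02e-09). Named after their values were seen, the kinase Lyn rose by 2.67 ± 0.16 (edgeR adjusted p = 9.22e-12) and the adaptor Lcp2 by 3.50 ± 0.17 (edgeR adjusted p = 3.55e-13). At stage III under anti-IL5 1 of 22 was called lower and 0 higher, against 5.05% and 1.32% of all genes. This was the kinase Fyn, at -1.04 ± 0.26 (log2, edgeR adjusted p = 0.0187). It lost the call in 4 of 13 alternatives, among them without replicate 1 of either treatment or anti-IL5 replicate 3, at an adjusted p of up to 0.0951. Averaged over stages, 5 of 22 were higher (Pik3r5, Syk, Ptpn6, Itpr2 and Prkcb), against 8.59% of all genes, with Syk at 0.36 ± 0.11 (edgeR adjusted p = 0.0236). Leaving out 1 library ended the call of Syk (without isotype replicate 1 of stage II, adjusted p = 0.062), of Pik3r5 (up to 0.0886) and of Ptpn6 (up to 0.133).

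Of 10 receptors that use the gamma chain, 8 were tested and 4 were called higher from stage I to IV in isotype libraries, against 32.3% of all genes. These were Fcgr3, Clec4e, Pira6 and Pira2. PIR-A/B was used in the gates, so levels of both Pira genes between stages describe the gates. Among them, and named after its value was seen, the IgG receptor Fcgr3 rose by 0.90 ± 0.22 (log2, edgeR adjusted p = 0.000983). For anti-IL5 at stage III edgeR called 0, with 0 at an unadjusted p under 0.05 and 0 by DESeq2 or limma-voom. Averaged over stages 1 of 8 was called, Pira2, higher, against 8.59% of all genes. Pira2 has near-identical copies that may split reads, and its protein family was used in the sort. Of 12 tested genes of granule storage and secretion, edgeR called 0 at stage III, with 2 at an unadjusted p under 0.05 and 0 by DESeq2 or limma-voom. Averaged over stages 1 of 12 was called lower and 1 higher, against 10.3% and 8.59% of all genes. Lower was Ctsc, the dipeptidase that activates granule serine proteases, at -0.67 ± 0.14 (log2, edgeR adjusted p = 0.00182). Higher was Stxbp2, which serves granule fusion, at 0.25 ± 0.07 (edgeR adjusted p = 0.014).

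Among 19 transcription factors of these lineages the list median at stage III under anti-IL5 was 0.19 (log2). Of the 19, 3 were called lower and 0 higher, against 5.05% and 1.32% of all genes. They were Gata2, given above, Runx1 at -1.26 ± 0.22 (edgeR adjusted p = 0.00139) and the Notch target Hes1 at -2.29 ± 0.65 (edgeR adjusted p = 0.0378). Hes1 lost its call in 6 of 13 alternatives, at an adjusted p of up to 0.196 without isotype replicate 3. Averaged over stages Gata2, Runx1 and Hes1 were lower and Meis1 and Lmo4 higher, 3 and 2 of 19, against 10.3% and 8.59% of all genes. Runx1 lost that call without anti-IL5 replicate 1 of stage II (adjusted p = 0.066), and Meis1 lost it in 6 of 28 alternatives, at an adjusted p of up to 0.126. Gata1, a GATA factor of eosinophils named after its value was seen, gave 0.29 ± 0.16 (edgeR adjusted p = 0.302) at stage III.

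**Figure D5:**
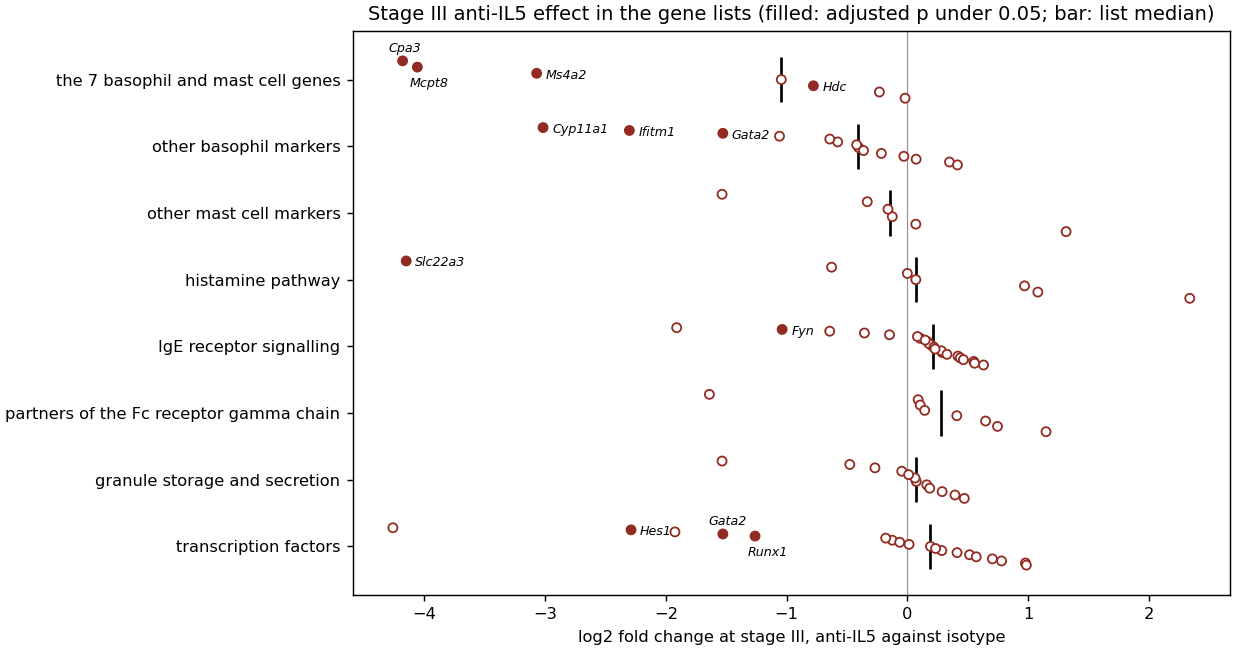
Anti-IL5 against isotype at stage III as log2 fold change for every tested gene of 8 lists, with filled points for an edgeR adjusted p under 0.05 and a bar at each list's median. All filled points lie below 0, and the median of the 7 basophil and mast cell genes, -1.04, lies furthest below it.

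The genes whose pattern over the 22 libraries was nearest to each of the 7 were found by the root mean square difference of centred log2 CPM among 9077 genes. For Cpa3 these were Nrgn, at 0.71, Timm8a1, at 0.83, and Slc27a1, at 0.86, on a scale where the spread of Cpa3 itself is 2.58. For Ms4a2 they were Drosha, Ttll4 and Pla2g12a, at 0.74 to 0.78 against a spread of 1.62. For Fcer1a they were Papss2, Tmem205 and Ncam1, all at 0.53 against 1.73. For Hdc they were Bcas1os2, Bcas1 and Tmem205, at 0.32 to 0.38 against 1.46. For Mcpt8, Nkg7 was nearest, at 1.01 against a spread of 3.83, then Pdia5 and Mettl1. For Prss34, Dusp2 at 1.48 came before Mcpt8 at 1.52 and Fgf3 at 1.53, against 3.93. Fcer1g was nearest to Tmsb4x, at 0.08 against 0.37, Myl12b and Arhgdib, genes of the actin cytoskeleton and its control that are abundant in leukocytes. Among the 7, a member thus appeared in another's nearest 3 only for Prss34.

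Markers of other cells moved at stage III beside these genes. None of 10 eosinophil markers was at 0, and 2 of 10 were called lower, Epx and Prg3, against 5.05% of all genes. Their summed level was 26600 to 31920 CPM under anti-IL5 and 42585 to 49552 in isotype libraries. That of 10 T, NK and innate lymphoid cell markers was 27.0 to 30.4 CPM against 94.0 to 234, almost all of it Nkg7, which had 16.1 to 19.6 against 85.9 to 220.1 CPM, while Cd3e, Cd4, Cd8a, Klrb1c, Il7r, Thy1 and Rora had 0 counts in the isotype group. That of 8 stem and progenitor markers was 73.8 to 79.4 CPM against 35.0 to 43.3, with 0 of 7 tested genes called by edgeR, 2 at an unadjusted p under 0.05, 1 by DESeq2 and 0 by limma-voom. That of 11 neutrophil markers was 7271 to 8248 CPM against 5260 to 7803, with 1 of 11 called higher, against 1.32% of all genes. At stage III edgeR called 0 of 10 tested monocyte and macrophage markers, 0 of 5 erythroid, 0 of 4 megakaryocyte and 0 of 4 B cell markers, with 1 of them, a megakaryocyte marker, at an unadjusted p under 0.05 and 0 by DESeq2 or limma-voom. The part of these cells in the results was not tested.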

How the data were processed

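Per the labels' protocols, cDNA of sorted bone marrow cells was made with SMART-Seq v4, which keeps no strand information, and libraries with Nextera XT. The submitters' processing notes list the aligner STAR 2.6.1a, the mouse build mm10 and DESeq2, the last with no stated role. The counter and gene annotation were not given in the sources used here. Every file deposited by the authors holds raw counts per gene symbol. Reads outside any gene made up 12.7% to 22.1% of a file and ambiguous reads 1.86% to 2.39%, and neither line was used.

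Computed here from the deposited counts, a single quasi-likelihood model of edgeR 4.0.16 under R 4.3.3 covered the 22 libraries as 8 groups of stage and treatment, with TMM factors, robust dispersion and no replicate block, on the 12387 of 16619 detected genes that filterByExpr kept. Adjusted p-values are Benjamini-Hochberg over these genes. Where a group held few or 0 counts, folds are ratios of summed counts with exact 95% binomial intervals, or bounds at a floor of 3 counts over the group. The alternatives were DESeq2 1.42.0, limma-voom (limma 3.58.1), other scaling, no filter, only the groups compared, replicate blocks and each library left out. The model was tested on data simulated for anti-IL5 against isotype at stage III. It called 62 of 100 genes changed 2-fold and 98 of 100 changed 4-fold, with 4 false calls. Genes at few counts, such as Prss34 at that stage, were not among those changed. The labels do not say what a replicate number marks. Deviations from group means of libraries with the same number and treatment correlated across stages at a median of 0.167, over 0.1 in 22 of 30 pairs, against -0.0794 and 4 of 60 for other numbers. Because deviations in a group sum to 0, positive values for the same number force negative ones for others. The latter are thus no independent baseline. All 3 pairs were over 0.1 between stages III and IV in both treatments (0.133 to 0.194 under anti-IL5, 0.247 to 0.363 in isotype). The same held between stages I and III (0.141 to 0.195 under anti-IL5, 0.127 to 0.364 in isotype) and between stages I and IV in isotype (0.14 to 0.277). Numbers were therefore taken to pair these libraries, although the main p-values come from the fit without a block. Pairs of stages I and IV under anti-IL5 (0.0286 to 0.0882) were not over 0.1, and steps with stage II have 2 pairs. Both were over 0.1 between stages I and II under anti-IL5 (0.28 to 0.339), but not at the other steps with stage II.

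The 7 genes and the gene lists were chosen with earlier results of these data known, so counts over lists are descriptions. Promoter motifs were chosen after the sequences were seen. From each list the text names the genes called at stage III or averaged over stages or, with none, the 2 most abundant, and for each of the 7 genes the 3 nearest in pattern among genes whose mean reached 10 CPM in a group (log2 CPM, prior count 2). Genes named beyond this rule are said to be so, or are marker values or the rest of a short count.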

Additional observations from a re-analysis of the deposited data

Results flagged for a closer look

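In 4 results the anti-IL5 effect differed between stages by a test of the difference itself. For Cpa3 the effect at stage III minus that at stage I was -4.12 (log2), and that at stage III minus stage IV was -4.76, with the 3 anti-IL5 libraries of stage III below all 3 isotype libraries. The interaction of stage and treatment for Cpa3 had an edgeR adjusted p of 0.000449. For Hdc the effect at stage III minus stage IV was -1.11 (log2, edgeR adjusted p = 0.0452). Values of Cpa3 without isotype replicate 3 of stage III, the library with the highest level of its group, were -3.53 ± 0.41 for stage III minus stage I (edgeR adjusted p = 0.000354) and -4.17 ± 0.43 for stage III minus stage IV (edgeR adjusted p = 6.82e-05). The Hdc value without this library was -1.10 ± 0.27 (edgeR adjusted p = 0.0948).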

How the results depend on the processing

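The counts of genes called among the 7 at stages III and IV, averaged over stages, over whole maturation, and at the steps from II to III and from III to IV stayed within 1.5 times in every alternative. Stage I went from 0 to 1 with limma-voom, and stage II from 0 to 1 with DESeq2 and 1 with the replicate block. The step from I to II, with 5 calls of 14 tests, gave 11 with limma-voom, 9 without TMM scaling, 2 without the filter and 9 with the replicate block nested in treatment. The difference between stages, with 3 of 14, gave 5 with DESeq2. Leaving out 1 library gave 3 to 7 calls for the step from I to II, 2 to 3 for the difference between stages and 3 to 5 at stage III. Directions in these fits were followed for called values, for the anti-IL5 effects at stages I and III and for a few others. Most other values that were not called were not followed. Among those followed, a direction reversed only for 3 values that were not called, namely Cpa3 at stage I (-0.34 to 0.12 on the log2 scale), Fcer1g at stage III (-0.053 to 0.011) and Prss34 at stage III (-2.01 to 0.35). With only stage III fitted, Ms4a2 had an adjusted p of 0.0594, and with limma-voom Mcpt8 had 0.053. With DESeq2 Fcer1a was called at 0.0448.

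Between treatments it was not settled whether replicate numbers mark paired samples. Deviations of libraries with the same number and stage correlated there at -0.0293 to 0.635, over 0.1 in 6 of 11 pairs. Their median was 0.113, beside -0.0794 for other numbers within a treatment, a value pulled below 0 by the centring on group means. The highest value, 0.635, was that of both stage II pairs, which mirror each other in groups of 2. Numbers were taken to pair libraries between stages III and IV and, in isotype libraries, between stages I and IV. There the replicate block, also nested in treatment, changed no call among the 7. It gave 8 of 14 called from stage III to IV and 7 of 7 from stage I to IV in isotype libraries. Stages I and III, also paired, were compared only through the anti-IL5 effect. For the differences of that effect between stages, a block shared by both treatments kept the calls of Cpa3 and Hdc. Both pairs of stages I and II under anti-IL5 were correlated as well (0.28 to 0.339). At the step from I to II the nested block changed the number of calls, as given above. With the replicate block, Cpa3 at stage II was called (adjusted p = 0.0465), 4 genes were called at stage III and 3 averaged over stages. Genes at few counts (Mcpt8 and Prss34 at stages III and IV) are limited by depth, and a library at 0 counts allows up to 3.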
